A study of Drosophila melanogaster with 3 samples.

Results

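Transfer RNA (tRNA) genes are described here in anti-HA CUT&Tag data from Drosophila melanogaster wing discs. They were taken by symbol, as every gene of the dm6 annotation on chromosomes 2L, 2R, 3L, 3R, 4 and X whose name begins with tRNA:, which gave 295 of the 17683 genes there. None is on chromosome 4, and 5 are annotated as tRNA pseudogenes. The genes are 71 to 186 bp long, with a median of 73 bp. They fall into 22 groups by amino acid when initiator methionine (iMet), elongator methionine (Met) and selenocysteine (SeC) are counted apart.

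All 3 libraries form 1 group, BunA-HA wing disc, numbered here as replicates 1 to 3. They were made from discs of larvae in the third instar with the genotype nub>GFP;UAS-BunA-HA, raised at 25 °C, whose discs were dissociated at 37 °C. BunA is an isoform of Bunched, the fly member of the TSC22 family, carried here with an HA tag on a UAS transgene beside GFP and switched on by the nubbin driver, which acts in the wing pouch and not in the whole disc. In CUT&Tag a transposase held at the antibody cuts and tags nearby DNA. No library without the tagged protein was analysed here, so antibody signal and open chromatin cannot be told apart. Nothing in the labels ties a library to its own larvae or cross, and an SD over the libraries may therefore hold technical spread alone.

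tRNA genes are transcribed by RNA polymerase III from promoter elements that lie inside the gene, the A box and the B box. The factor TFIIIC binds these elements and brings in TFIIIB, which sits just upstream of the start and recruits the polymerase. Many tRNA genes are identical copies spread over several clusters, so the same tRNA is made from several places in the genome.

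A part of the tRNA genes had a region with anti-HA signal nearby, and most of these regions were centred on or beside a gene. A consensus region is a stretch of overlapping peaks with a peak in each of the 3 libraries, and 5729 such regions lay on the 6 chromosomes. Of the 295 tRNA genes, 120 (40.7%) had a consensus region within 1000 bp. The same rule was met by 23.2% of all genes, by 23.9% of protein-coding genes and by 16.7% of the 874 other non-coding genes of up to 300 bp, a set of mainly small nucleolar RNA and microRNA genes. Protein-coding genes are longer than tRNA genes and so offer more room for a region. The share was computed for these sets as a description, with no test between them.

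By single libraries, a peak lay within 1000 bp of 133 tRNA genes in replicate 1, 144 in replicate 2 and 144 in replicate 3, a share of 47.6% ± 2.15 (SD, n = 3). Among all genes the shares were 28.2%, 29.6% and 29.6%. The tRNA share lay above the share of all genes in each library. A further 43 tRNA genes without a consensus region had a peak in at least 1 library, and 132 had none in any library. A peak in any library was thus near 163 tRNA genes (55.3%), against 35.3% of all genes.

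A consensus region overlapped 66 tRNA genes (22.4%), against 14.9% of all genes and 4.35% of the other short non-coding genes. For 54 of the 120 tRNA genes with a region within 1000 bp, no region overlapped the gene. Among the short genes, overlap was found for 8 of 267 small nucleolar RNA genes, 2 of 260 microRNA genes and 5 of 30 small nuclear RNA genes. Single libraries gave 79, 83 and 80 tRNA genes overlapped by a peak, for which no share over all genes was computed. With the gap widened to 100 bp the share of tRNA genes was 23.4%, against 16.4% of all genes, and with 500 bp it was 32.2%, against 19.9%. A region centre lay within 100 bp of 59 tRNA genes (20.0%), against 14.3% of all genes.

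The 80 consensus regions within 1000 bp of a tRNA gene, 1.4% of all 5729, were mostly centred on a narrow zone. The centre is the mean summit position of the peaks merged into a region. It lay inside a tRNA gene for 18 regions and 1 to 50 bp outside for another 33, so 51 of 80 were centred within 50 bp of a gene. The median distance was 25 bp. In the separate libraries the median distance from the summit of these regions to the nearest tRNA gene was 35.5, 34.5 and 30.5 bp, or 33.5 ± 2.65 bp (SD, n = 3). The strand of the genes was not used, so the side on which the summits lie, upstream or downstream, is not stated.

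Corrected for the length of sequence at each distance, region centres were densest in the first 50 bp outside the genes. They numbered 0.804 per kb inside tRNA genes, 1.12 per kb at 1 to 50 bp, 0.146 per kb at 51 to 100 bp and 0.0665 per kb beyond 100 and up to 200 bp. The mean over the 6 chromosomes was 0.0428 per kb. The other short non-coding genes had 0.118 per kb inside the gene and 0.0616 per kb at 1 to 50 bp. For tRNA genes the density from 51 to 1000 bp was 0.0768 per kb, against 0.106 per kb around the other short genes. Over the steps beyond 50 bp neither set was higher throughout, since tRNA genes had more centres per kb at 51 to 100 bp (0.146 against 0.107) and beyond 200 and up to 500 bp (0.107 against 0.0745), and fewer at the 2 other steps (0.0665 against 0.171 up to 200 bp, and 0.0481 against 0.112 beyond 500 bp).

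**Figure D1:**
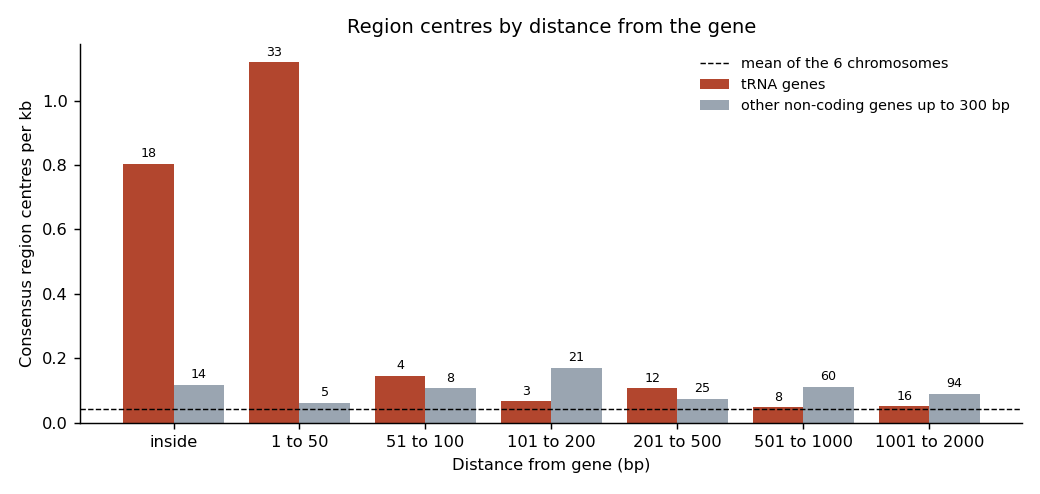
Consensus region centres per kb of sequence (vertical axis) by distance from the nearest gene in bp (horizontal axis), for tRNA genes and for other non-coding genes of up to 300 bp, with the number of centres above each bar and the mean of the 6 chromosomes as a dashed line. The bars of tRNA genes reach 0.804 inside the gene and 1.12 at 1 to 50 bp, and drop to 0.146 at 51 to 100 bp.

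The regions beside tRNA genes were of moderate strength and narrow. Fold enrichment, the authors' linear value for each peak, averaged here over the 3 libraries, had a median of 9.01 over the 80 regions, with a range of 4.54 to 18.2, against a median of 8.21 over the other 5649 consensus regions. In replicates 1, 2 and 3 the medians were 8.34, 9.31 and 9.20 for the tRNA regions, against 7.95, 8.38 and 8.25 for the others. The median width was 178.5 bp, against 239 bp for the others. No tRNA region approached the highest fold of the other regions, 74.7. A protein-coding gene boundary lay within 1000 bp of the centre of 35 of the 80 regions (43.8%), close to the 41.6% of all consensus regions.

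Genes in clusters had regions more often than genes standing alone. With neighbours joined over gaps of at most 5 kb, 218 tRNA genes formed 69 clusters of 2 or more, and 77 stood alone. The clusters spanned 240 to 13990 bp, with a median of 923 bp. A consensus region lay within 1000 bp of 42 of the 69 clusters (60.9%), and of 12 of the 77 single genes (15.6%), which is below the 16.7% of other short non-coding genes. By genes, the counts were 108 of 218 in clusters (49.5%) and 12 of 77 alone. Neighbours share regions: 53 of the 80 regions lay within 1000 bp of 2 or more tRNA genes, and up to 6 genes shared 1 region, so the genes of a cluster are not independent.

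Overlap and centres within 50 bp gave a smaller gap between clustered and single genes, but centres inside the gene did not. A region overlapped 57 of 218 clustered genes (26.1%) and 9 of 77 single genes (11.7%). Region centres numbered 1.15 per kb in the gene and the 50 bp around it for clustered genes, and 0.515 per kb for single genes. Both values lay above the 0.0952 per kb of other short non-coding genes. Inside the gene alone, clustered genes had 1.03 centres per kb (17 centres) and single genes 0.170 per kb (1 centre). Of the 12 single genes with a region, 9 were overlapped by it.

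**Figure D2:**
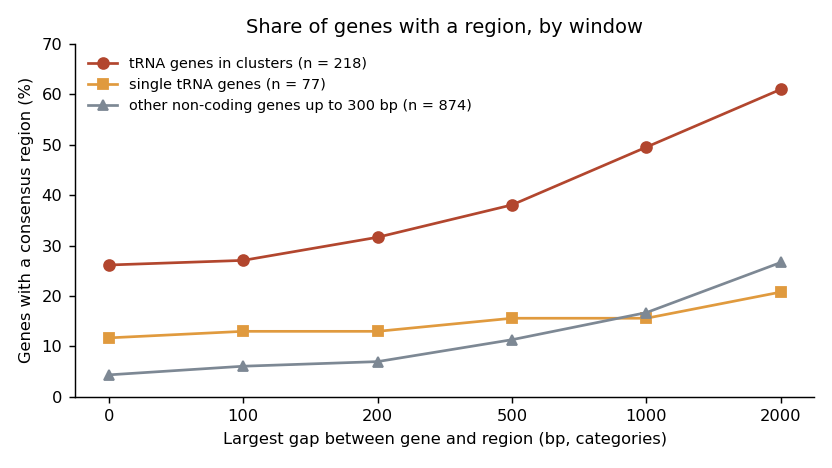
Percent of genes with a consensus region (vertical axis) by the largest gap allowed between gene and region in bp (horizontal axis, evenly spaced categories), for tRNA genes in clusters, single tRNA genes and other non-coding genes of up to 300 bp. Clustered tRNA genes start at 26.1% with overlap and reach 61.0% at 2000 bp, while single tRNA genes start at 11.7% and other short genes at 4.35%.

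The share of clusters with a region was 56.4% for the 39 clusters of 2 genes and 64.3% for the 14 of 3. It was 57.1% for the 7 clusters of 4 or 5 and 77.8% for the 9 of 6 or more. A larger cluster covers more sequence, and 1 gene near a region is enough to count it. By genes the order was reversed, with 63 of 120 (52.5%) in clusters of 2 or 3 and 45 of 98 (45.9%) in clusters of 4 or more. A region overlapped 30.0% and 21.4% of these genes. In 28 of the 69 clusters every gene had a region within 1000 bp, in 14 some did, and in 27 none did. Of the 137 tRNA genes that lie inside a protein-coding gene, 48 (35.0%) had a region, and of the 158 outside, 72 (45.6%) did. A tRNA gene within 1000 bp of a protein-coding boundary had a region in 50 of 105 cases, and one farther away in 70 of 190 (36.8%).

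Within large clusters, regions stood at some genes and left others without. The largest on 2R, 11 genes from tRNA:Arg-ACG-1-2 to tRNA:Arg-ACG-1-4 at chr2R:6161535-6171759, begins inside EcR, the ecdysone receptor gene. Its 8 genes inside EcR had no peak in any library within 1000 bp, while its last 3 genes, outside EcR, were each overlapped by a region. The region at tRNA:Lys-CTT-1-5 had a fold of 9.50, 7.79 and 11.8 in replicates 1, 2 and 3, and that at tRNA:Arg-ACG-1-3 had 8.35, 10.1 and 7.15.

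A second cluster of 11 genes, from tRNA:Val-CAC-1-1 to tRNA:Pro-TGG-1-3 at chr3R:17617761-17631750, had regions at its first 5 genes and at none of the other 6, of which 2 threonine genes had a peak in replicate 1 alone. Fold was 8.32, 10.6 and 10.002 in replicates 1, 2 and 3 for the region centred inside tRNA:Pro-TGG-1-1. The region centred inside tRNA:Pro-TGG-1-2 had 7.23, 7.48 and 8.09. Another copy, tRNA:Pro-TGG-1-3, at the far end of the same cluster, had no peak in any library.

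The 8-gene cluster of initiator methionine and glutamate tRNAs, at chr2R:19725620-19729353, had 4 regions, and each of the 8 genes lay within 1000 bp of at least 1 of them. Among these, tRNA:iMet-CAT-1-2 held a region centre, with folds of 7.41, 7.95 and 6.07 in replicates 1, 2 and 3. The region next to tRNA:Glu-TTC-1-5 was centred 3 bp from the gene, with 5.85, 8.95 and 9.31. The fourth region was centred 692 bp from the pseudogene tRNA:Glu-CTC-5-1Psi and inside 5SrRNA:CR33451, a gene of the ribosomal 5S RNA array that begins beside the cluster.

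In 2 further clusters inside protein-coding genes every tRNA gene had a region nearby. The 7 genes in ATP8A, a flippase gene, at chr2R:13430282-13432794, had 2 regions. The stronger was centred 3 bp from tRNA:Leu-CAA-2-1, with folds of 14.7, 11.5 and 10.8 in replicates 1, 2 and 3. The 6 genes in Cht7, a chitinase gene, at chr3L:3095737-3097590, had 2 regions with folds of 7.60, 9.10 and 7.40 at tRNA:Cys-GCA-1-1 and of 8.41, 8.59 and 8.11 at tRNA:Cys-GCA-1-3. All 6 had a peak within 1000 bp in each library, and 3 of them were overlapped by a region.

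Other large clusters had no consensus region. The 7-gene arginine and serine cluster from tRNA:Arg-TCG-2-1 to tRNA:Arg-TCG-3-4, at chrX:14014814-14017284, had a peak within 1000 bp of 3 genes in replicate 3 and of none in replicates 1 and 2. The 6 tRNA:Glu-CTC-3 genes in Ptp61F, at chr3L:1397695-1401852, had a peak near 2 genes in replicates 2 and 3 and near none in replicate 1. On X as a whole, 3 of 26 tRNA genes had a region, against 26.5% of all genes on X, whereas 50 of 100 did on 2R, against 22.8% of all genes there. The X chromosome was therefore the only one of the 5 with tRNA genes where their share lay below that of all genes. The X genes are few and partly in clusters, so they are not independent. A peak lay within 1000 bp of 4, 4 and 7 of the 26 in replicates 1, 2 and 3, and of 8 in any library. Chromosome 4, with 34.2% of all genes near a region, has no tRNA gene.

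**Figure D3:**
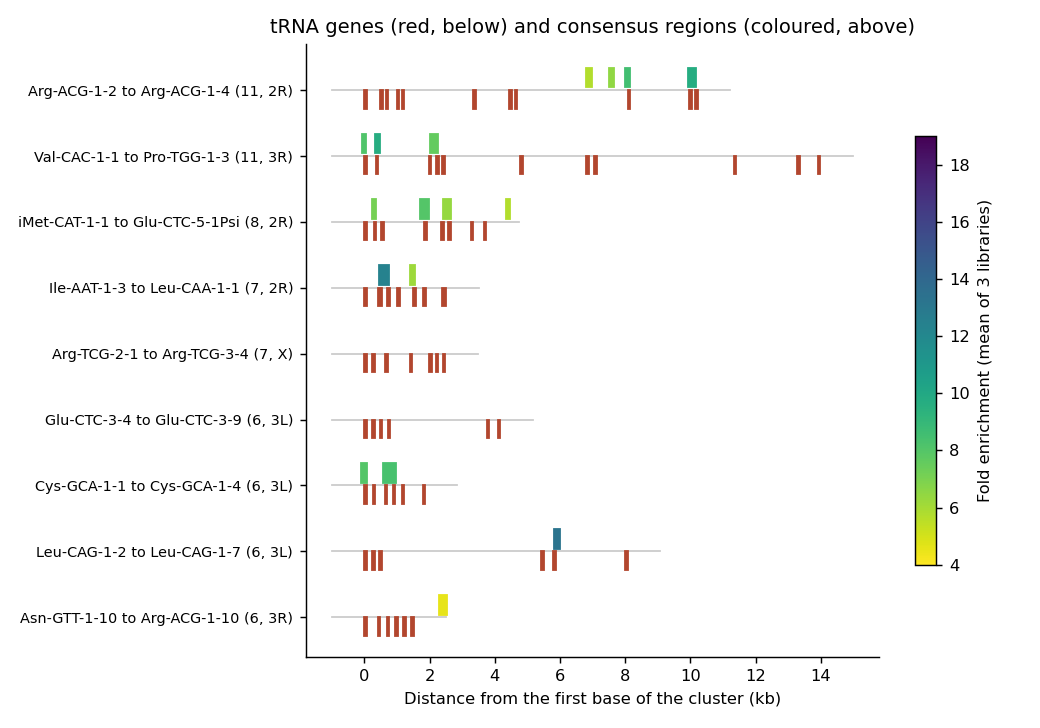
The 9 tRNA clusters of 6 or more genes, drawn by distance in kb from the first base of the cluster, with tRNA genes as red marks below each line (widened to be visible) and consensus regions within 1 kb of the cluster as marks above it, coloured by fold enrichment; the number of genes and the chromosome follow each name. Regions stand at the right end of the Arg-ACG-1-2 cluster and at the left end of the Val-CAC-1-1 cluster, and none stands at the Arg-TCG-2-1 and Glu-CTC-3-4 clusters; the leftmost region of the Arg-ACG-1-2 cluster is over 1000 bp from any tRNA gene and is not counted.

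The strongest regions beside tRNA genes included some on other genes transcribed by RNA polymerase III. The highest fold near a tRNA gene, 19.1, 18.2 and 17.3 in replicates 1, 2 and 3, belonged to a region at chr3R:7474636-7475083. It was centred inside snRNA:7SKa, the gene of an RNA that holds back a transcription elongation kinase, and 1088 bp from tRNA:Val-CAC-2-4. The 4 tRNA:Lys-TTT-2 genes at chr3R:6819894-6823035 had 2 regions, both centred inside genes of the 7SL RNA of the signal recognition particle. At 7SLRNA:CR42652 the folds were 14.3, 12.3 and 14.1, and at 7SLRNA:CR32864 they were 13.8, 14.3 and 14.5. These regions were centred 320 and 321 bp from the nearest tRNA gene, and none overlapped one.

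On tRNA genes themselves, the strongest regions were at proline, aspartate and arginine tRNAs. The single gene tRNA:Pro-CGG-2-3, inside not on 3L, had a region at chr3L:18618223-18618441 centred 42 bp away, with folds of 13.3, 18.9 and 17.4 in replicates 1, 2 and 3. The centre of that region also lay 43 bp from a protein-coding gene boundary, so it was about as near to that boundary as to the tRNA gene. The single gene tRNA:Pro-TGG-1-5, inside qin, had 15.7, 16.0 and 17.4 at chr3R:18628367-18628805, centred 12 bp away. Replicate 1 was the lowest of the 3 at both genes.

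Some paired genes also had a region on the gene, and others had theirs only at a distance. Such regions were centred 758 bp from tRNA:Asp-GTC-2-1 and 773 bp from tRNA:Trp-CCA-2-2, for example. The region between tRNA:Asp-GTC-1-4 and tRNA:Asp-GTC-1-5, at chr2L:8541566-8541820, overlapped both and had folds of 12.9, 16.0 and 15.7. That at tRNA:Arg-CCT-1-3, at chr2R:20000731-20000879, had 15.8, 13.7 and 14.7, centred 25 bp away. Its neighbour tRNA:Arg-CCT-1-2 held a weaker region with 5.31, 7.66 and 8.02. A region at tRNA:Gly-GCC-1-12, inside a cluster with 2 tryptophan genes at chr2R:21161063-21161597, had 14.0, 14.0 and 13.8, the least spread of these regions.

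Each of the 3 tRNA:Thr-CGT-1 genes at chr3R:20890698-20891729 carried its own region. Folds in replicates 1, 2 and 3 were 4.99, 9.32 and 8.18 at tRNA:Thr-CGT-1-1. They were 6.48, 5.18 and 7.16 at tRNA:Thr-CGT-1-2. They were 11.0, 14.0 and 17.4 at tRNA:Thr-CGT-1-3, which was the strongest of the 3 in every library. Of 2 glycine genes at chr2L:14530546-14530924 neither was overlapped, and their region, of folds 14.5, 12.9 and 15.2, was centred 426 bp from tRNA:Gly-GCC-2-1. For the alanine pair at chr2R:17391774-17392286 the stronger region (11.8, 16.2 and 12.6) was likewise off the genes, centred 285 bp from tRNA:Ala-TGC-2-1. A weaker one (11.6, 10.9 and 10.5) was centred inside tRNA:Ala-TGC-2-1.

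**Figure D4:**
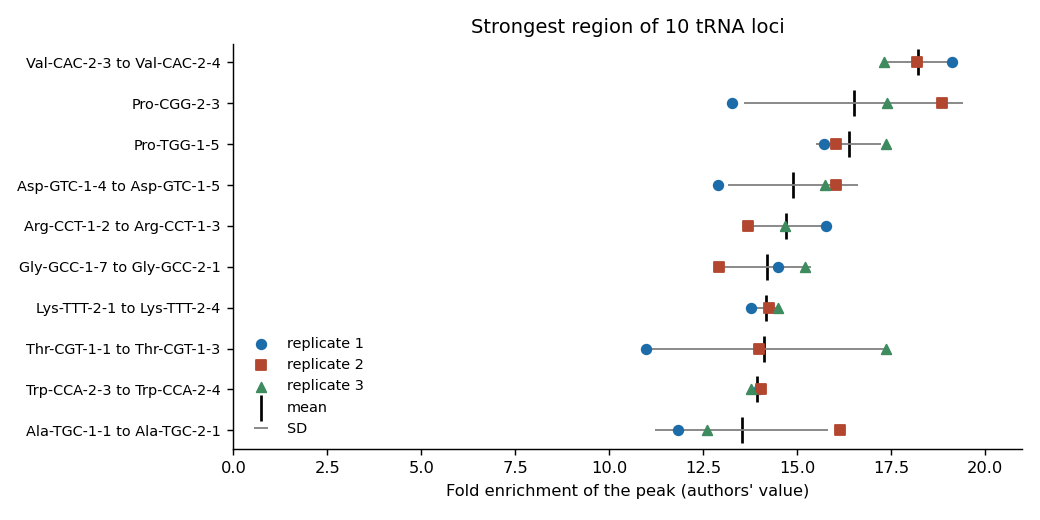
Fold enrichment of the strongest region (horizontal axis, the authors' linear value) at the 10 tRNA clusters or single genes with the highest mean, with 1 point for each replicate, a tick for the mean and a line for ± 1 SD (n = 3). Means run from 13.5 at the Ala-TGC pair to 18.2 at the Val-CAC pair, whose region is centred inside snRNA:7SKa, and the replicates differ most at Thr-CGT, from 11.0 to 17.4.

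Regions exactly on a tRNA gene were found across different tRNAs. Centres lay inside tRNA:Leu-CAG-1-6 (folds of 11.5, 12.9 and 15.3 in replicates 1, 2 and 3), tRNA:His-GTG-1-3 (8.98, 13.3 and 10.2), tRNA:Ser-TGA-1-1 (10.7, 7.92 and 8.73) and tRNA:Leu-CAA-2-3 (7.48, 7.18 and 8.69). The tRNA:Leu-CAG-1-6 gene belongs to a cluster of 6 tRNA:Leu-CAG-1 genes, of which the 3 outside Sarm and the last inside it, tRNA:Leu-CAG-1-7, had no peak in any library. The serine gene's neighbour, tRNA:Ser-TGA-2-1, had a region of its own, centred 62 bp away, with 10.4, 12.2 and 12.2. Both tRNA:Val-TAC-1 genes held a centre, with 5.97, 5.63 and 5.53 at tRNA:Val-TAC-1-1 and 6.93, 6.85 and 8.74 at tRNA:Val-TAC-1-2. In the valine and alanine pair at chr3R:19790122-19791044, tRNA:Val-CAC-2-6 held a centre (5.98, 9.32 and 7.67) and tRNA:Ala-AGC-2-11 had one 2 bp away (12.0, 9.84 and 9.71).

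By amino acid, 20 of the 22 groups had at least 1 gene with a region within 1000 bp. The 2 methionine groups are given apart. Initiator methionine genes, whose tRNA starts translation, had a region in 4 of 6 cases, and 3 were overlapped. Elongator methionine genes had a region in 0 of 6, and 2 of them had a peak in 1 library each. With a window of 2000 bp 2 elongator genes had a region, which brings the groups with one to 21, and with peaks above the median fold of their library 2 initiator genes had one. Of the 6 elongator genes 5 stand alone, while the 6 initiator genes lie in 4 places, 2 of them with regions. The single selenocysteine gene had no peak in any library.

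The other groups ranged from 2 of 10 asparagine genes (20.0%) to 10 of 17 alanine genes (58.8%). Next to alanine came isoleucine (7 of 12), cysteine (4 of 7) and valine (8 of 15), then glutamine (6 of 12), histidine (3 of 6) and tryptophan (4 of 8). At the low end stood serine (5 of 20), aspartate (4 of 14), tyrosine (3 of 10) and arginine (8 of 26), each above the 23.2% of all genes, whereas asparagine lay below it. The place of serine rests on replicate 1, without which 9 of 20 serine genes had a region, as they did with regions of at least 2 libraries. Counts also moved with the window: at 500 bp, 1 histidine and 2 aspartate genes had a region. The share of all genes at 500 bp was 19.9%. By overlap with the gene, proline led among groups of 7 or more genes with 7 of 17 (41.2%), followed by threonine with 6 of 18 (33.3%). Overlap was found for 22.4% of all tRNA genes and 14.9% of all genes. Groups are small and clusters tie their members together, as with cysteine, whose 4 genes with a region lie in 1 cluster.

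**Figure D5:**
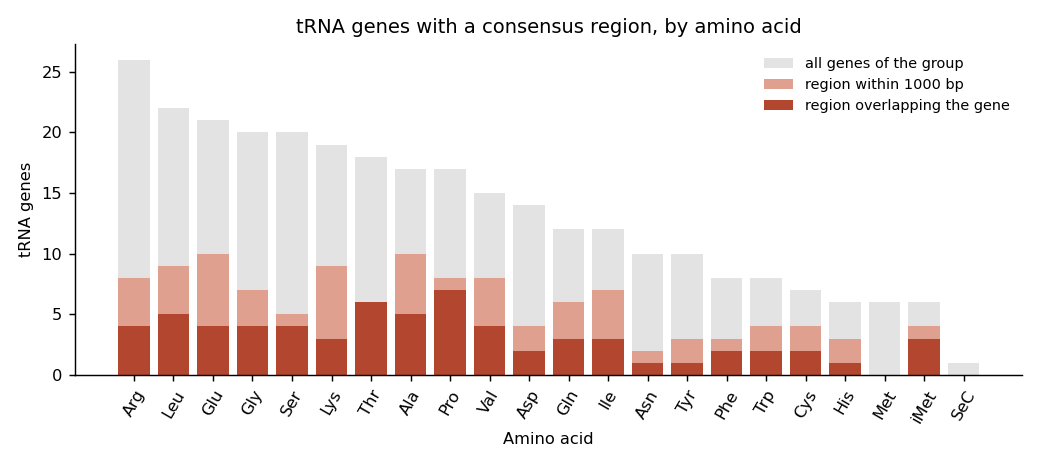
Number of tRNA genes (vertical axis) for each amino acid group (horizontal axis, from most to fewest genes), with all genes in grey, those with a consensus region within 1000 bp in light red and those overlapped by a region in dark red. Elongator methionine and selenocysteine have no coloured part, and proline has 7 overlapped genes of 17.

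Copies that share a name down to the number after the anticodon did not all have a region within 1000 bp. In this naming scheme that number is given to genes with the same mature tRNA sequence. Of 46 such families of 2 or more copies, 32 had a region within 1000 bp of some copies and not of others. In 7 families all copies had one, and in 7 none did. With 40.7% of all tRNA genes near a region, a family of many copies would often be mixed by that share alone. Whether copies differ beyond it was not tested. Of the 25 families with 5 or more copies, 23 were mixed and 2, tRNA:Met-CAT-1 and tRNA:Ser-GCT-2, had none. For instance, 5 of 13 tRNA:Gly-GCC-1 genes, 4 of 13 tRNA:Lys-CTT-1 genes and 3 of 12 tRNA:Asp-GTC-1 genes had a region. Families with all copies counted were small, such as the 4 tRNA:Cys-GCA-1 and the 3 tRNA:Thr-CGT-1 genes. A region overlapped 2 of the 4 tRNA:Cys-GCA-1 genes and each of the 3 tRNA:Thr-CGT-1 genes. How the authors treated reads that map to several identical copies is not given in the sources used here, so peaks inside such genes are uncertain, and their part in these differences was not tested.

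Among other genes transcribed by RNA polymerase III, a region within 1000 bp was found at both 7SL genes, at snRNA:7SKa but not at the other 7SK gene, and at the RNA gene of RNase MRP, which processes ribosomal RNA (7.95, 10.4 and 13.7 in replicates 1, 2 and 3). None was found at the 3 U6 genes, whose RNA acts in the spliceosome, or at the RNA gene of RNase P, which trims tRNA precursors. Of 100 genes of the repeated 5S RNA array 11 had one, a lower share than the 23.2% of all genes and the 16.7% of other short non-coding genes. That order did not hold for peaks of any library. Such a peak lay within 1000 bp of 40.8% of the 98 short genes annotated as ribosomal RNA. It lay near 35.3% of all genes and 27.1% of other short non-coding genes, a set that includes those 98. How reads were placed among the repeats is not given.

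Genes for the proteins that make or use tRNAs had regions at shares on both sides of the 23.2% of all genes. Within 1000 bp or inside the gene, a region was found for 0 of 10 RNA polymerase III subunit genes and for 3 of 8 genes of its factors and regulators. These were Brf, which encodes a TFIIIB subunit (7.98, 11.3 and 10.2 in replicates 1, 2 and 3), Maf1, which encodes a repressor of the polymerase (6.24, 7.10 and 8.28), and the growth regulator gene Myc (14.0, 10.6 and 11.0). Aminoacyl-tRNA synthetases, which load tRNAs with amino acids, had one at 5 of 20 cytoplasmic genes, led by HisRS (12.9, 12.8 and 14.3), and at 2 of 15 mitochondrial genes, LeuRS-m and PheRS-m. Of 13 genes for tRNA processing and modification 2 had one, Tgt (11.5, 12.3 and 13.9) and Archease (3.91, 3.87 and 4.08). The shares of the 5 lists ran from 0% for the subunits to 37.5% for the factors and regulators.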

How the data were processed

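Anti-HA CUT&Tag was done on 3 wing disc libraries. Per the submitters' processing notes the build was dm6 and the tools named, with no roles, were MACS2, Bowtie, Bowtie2, Trim Galore, FastQC, deepTools, HOMER, ChIPseeker and R 4.2.1. Which aligner was used, and how duplicates and reads of several positions were handled, is not given in the sources used here. Each deposited list names its peaks after its own library, so peaks were called per library. The deposited lists give, per peak, a fold enrichment (a linear ratio), the −log10 of its p-value and of its q-value, and a score that is 10 times the −log10 q-value, in whole numbers, for 99.99% of peaks. The lowest −log10 q-value in the deposited lists is 2.0. The lists hold no read counts, so depth is unknown. Some folds recur exactly at separate loci, such as 9.31768 in replicate 2 at tRNA:Thr-CGT-1-1, tRNA:Val-CAC-2-6 and tRNA:Thr-AGT-1-7. The reason was not tested, and small differences in fold between copies or replicates are uncertain.

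Peaks sharing 1 bp or more were joined into regions. Consensus regions hold peaks of all 3 libraries, and their fold is averaged over the top peak of each. Genes came from the RefSeq table of Release 6 plus ISO1 MT, which has no strand. Distances are gaps between gene and region ends, or from summit to gene. tRNA genes up to 5 kb apart form a cluster. Counts were made with Python 3.11.15, pandas 2.3.3 and NumPy 2.4.6, and checked on simulated peaks. With 1 group no test was made. Members, lists and alternatives were chosen with earlier results of these data known. Named are the 10 loci with the highest fold, the 10 with a region centre nearest to a gene, the 5 largest clusters, and up to 6 genes per list; other genes and clusters were picked after their values were seen. Planned motif counts were not run, since no sequence was used here.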

Additional observations from a re-analysis of the deposited data

How the results depend on the processing

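Among 15 alternatives the share of tRNA genes with a region stayed above that of all genes. It was lowest with a window of 200 bp (26.8% against 17.3%, 79 genes) and highest with 2000 bp (50.5% against 28.2%). Not all of these could move the tRNA share. Cluster gaps of 2 kb and 10 kb leave both shares as they are, and chromosome 4, left out in another, has no tRNA gene. With windows of 200, 500 and 2000 bp the median distance from region centre to tRNA gene was 15, 21.5 and 45 bp, and the other short non-coding genes with a region numbered 61 at 200 bp and 233 at 2000 bp. With peaks above the median fold of their library there were 49 regions, a median distance of 31 bp and a median fold of 10.5, and 84 other short non-coding genes and 5 genes of the polymerase and enzyme lists had a region. Regions of at least 2 libraries had a median fold of 8.04. Leaving out each replicate in turn gave 122 to 133 tRNA genes (41.4% to 45.1%), against 24.5% to 25.5% of all genes. It also gave 55 to 62 clusters or single genes, 83 to 92 regions, and median distances of 26 to 31.5 bp. Of 264 counts by amino acid, 30 moved, by over 1.5 times or between 0 and a count above 0. Asking for a peak of each library without merging gives no regions, so its distance and fold were not computed. No paired analysis was possible because the 3 libraries form 1 group.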

Other observations

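Some tRNA genes without a consensus region had strong peaks in part of the libraries. The 4 serine genes around tRNA:Ser-GCT-2-3 on 3R shared a peak of fold 11.9 in replicate 2 and 7.16 in replicate 3, with none in replicate 1. At tRNA:Lys-CTT-1-11 on 2R the fold was 7.56 in replicate 1 and 10.6 in replicate 2, with no peak in replicate 3. The spread between libraries decides whether these genes are counted.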
